A study of Mus musculus with 11 samples.

Results

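The genes of the lysosomal proton pump and of the enzymes that work in the acid it makes were followed in RNA from cultured adult mouse microglia. The 44 genes were taken from a list of names: 17 code for subunits and accessory proteins of the vacuolar proton pump (V-ATPase), 21 for lysosomal hydrolases, and 6 for lysosomal membrane proteins, cofactors and a regulator. They are 44 of the 34745 genes in the deposited table and 44 of the 10938 genes tested. All 44 reached an FPKM (a level that corrects the count for gene length and library total) of at least 1 in all 11 libraries, so the filter on low values removed none of them.

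The 11 libraries fell into 4 groups: Pam3CSK4+IFN-gamma (n = 3), Pam3CSK4 (n = 2), IFN-gamma (n = 3) and Control (n = 3). Pam3CSK4 is a triacylated lipopeptide made to mimic those of bacteria and is an agonist of TLR2, a receptor of innate immunity; it was given at 100 ng/ml over 24 h. IFN-gamma, the cytokine of T and NK cells that activates macrophages, was given at 20 ng/ml, likewise over 24 h, and cells given both had Pam3CSK4 first. Microglia of all 4 groups were isolated from the cerebrum of C57BL/6 mice of 6 to 8 weeks and cultured for 10 to 14 days in medium with TGF-beta1 (5 ng/ml) and M-CSF (10 ng/ml), so Control cells carried these growth factors too. The labels do not say whether Pam3CSK4 was removed before IFN-gamma, when each group was harvested, or whether replicates came from separate animals or cultures, so p-values measure the spread between these libraries, which may be technical. One label field of Pam3CSK4+IFN-gamma replicates 2 and 3 gives another last digit in the lipopeptide's name; they were taken as the same treatment.

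Lysosomes break down material that a cell has taken up or set aside for recycling. The V-ATPase drives this: its cytosolic V1 sector burns ATP and turns a rotor, and its membrane V0 sector passes protons into the lumen, where the hydrolases have their acid optimum. Microglia, the resident macrophages of the brain, use this system to digest cell debris, myelin and pathogens, and an inherited loss of many of these hydrolases causes a storage disease with brain involvement.

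Many lysosomal genes carry the CLEAR element, a palindromic E-box to which TFEB, the main transcriptional activator of lysosomal genes, is known to bind. RefSeq promoters (GRCm38.p6, from 250 bases before to 50 bases after the start) were available for 37 of the 44 genes, as 42 promoters. The 8-letter core TCACGTGA, which reads the same on both strands, stood in 5 of these 42 promoters and in 0.974% of all 32851. Its inner E-box CACGTG, which every TCACGTGA contains, stood in 12 of the 42 and in 7.15% of all. A looser motif, TTCNNNGAA, the palindromic pattern recognised by STAT factors downstream of IFN-gamma, stood in 1 of the 42 (Arsa) and in 8.3% of all, and was searched on both strands. The 5 promoters with the TCACGTGA core are printed here, core in capitals, because these 5 genes share it and did not all pass the test in the same groups.
Atp6v1a, chr16:44139210-44139509, minus strand: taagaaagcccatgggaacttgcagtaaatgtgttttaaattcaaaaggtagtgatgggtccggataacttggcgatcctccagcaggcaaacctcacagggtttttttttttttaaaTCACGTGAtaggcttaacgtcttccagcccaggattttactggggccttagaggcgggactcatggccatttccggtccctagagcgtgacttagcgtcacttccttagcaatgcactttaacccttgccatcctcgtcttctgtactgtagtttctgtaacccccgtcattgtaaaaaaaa
Atp6v0e, chr17:26676146-26676445, plus strand: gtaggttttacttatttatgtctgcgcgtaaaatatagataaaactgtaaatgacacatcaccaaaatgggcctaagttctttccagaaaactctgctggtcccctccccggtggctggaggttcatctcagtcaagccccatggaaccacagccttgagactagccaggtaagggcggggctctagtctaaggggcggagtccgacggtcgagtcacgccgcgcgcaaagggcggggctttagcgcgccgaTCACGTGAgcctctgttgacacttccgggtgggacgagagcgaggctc
Atp6v0d1, chr8:105566015-105566314, minus strand: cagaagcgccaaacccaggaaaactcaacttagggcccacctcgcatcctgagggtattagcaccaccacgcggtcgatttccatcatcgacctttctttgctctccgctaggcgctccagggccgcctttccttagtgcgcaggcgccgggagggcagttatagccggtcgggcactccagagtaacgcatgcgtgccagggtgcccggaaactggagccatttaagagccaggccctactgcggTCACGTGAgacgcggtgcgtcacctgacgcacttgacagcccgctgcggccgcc
Gla, chrX:134600956-134601255, minus strand: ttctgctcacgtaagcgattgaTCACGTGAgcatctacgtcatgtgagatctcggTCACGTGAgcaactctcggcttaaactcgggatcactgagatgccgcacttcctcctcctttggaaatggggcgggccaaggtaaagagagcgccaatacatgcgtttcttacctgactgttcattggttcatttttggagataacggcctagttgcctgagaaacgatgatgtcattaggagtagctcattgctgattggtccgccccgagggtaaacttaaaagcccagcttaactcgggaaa
Mcoln1, chr8:3500269-3500568, plus strand: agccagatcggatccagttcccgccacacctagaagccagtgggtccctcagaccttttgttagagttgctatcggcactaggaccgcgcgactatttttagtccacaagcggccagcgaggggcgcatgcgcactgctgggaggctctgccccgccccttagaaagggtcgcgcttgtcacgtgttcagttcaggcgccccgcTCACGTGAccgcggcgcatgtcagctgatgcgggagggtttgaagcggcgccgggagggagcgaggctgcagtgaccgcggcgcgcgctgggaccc
Gla has the core at 2 places. In the tests against Control given below, Atp6v1a passed as a riser in the 2 groups given Pam3CSK4, and Mcoln1 with IFN-gamma. Gla and Atp6v0d1 passed with Pam3CSK4+IFN-gamma, and Atp6v0e in all 3 treated groups. Passing in some groups and not in others is not itself a difference. The log2 change of Atp6v0d1 was 0.29 with Pam3CSK4, 0.24 with IFN-gamma and 0.29 with both. Its call and those of Atp6v0e were lost without single libraries. A letter match describes the sequence and is not a measured binding site.

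Libraries held 15033702 to 20321017 counts. All 10 microglial marker genes were detected in every library, with a summed level of 841 to 945 FPKM in Pam3CSK4+IFN-gamma, 1184 to 1207 in Pam3CSK4, 1601 to 1716 in IFN-gamma and 2031 to 2720 in Control; 1 of the 10, Siglech, was under 1 FPKM in every library given Pam3CSK4. Of 14 markers of mural cells and fibroblasts, 10 reached 1 FPKM in Control replicate 3 and in IFN-gamma replicate 1 and 7 did so in Pam3CSK4+IFN-gamma replicate 3, against 1 or 2 in every other library, where up to 9 of the 14 were at 0. Their summed FPKM was 22.2, 18.3 and 70.8 in Pam3CSK4+IFN-gamma, 63.5 and 54.3 in Pam3CSK4, 136, 17.7 and 17.4 in IFN-gamma, and 31.7, 44.5 and 2375 in Control. In the 8 other libraries nearly all of that sum was Cspg4. Control replicate 3 also had the lowest summed FPKM of the 3 Control libraries for each class of the genes studied, as given next. The part of these transcripts in the results was not tested, and calls that change without Control replicate 3, or without all 3 of these libraries, are given with each comparison. In bulk RNA, fewer cells of a type and less RNA per cell cannot be told apart.

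Of the 44 genes, 34 differed among the 4 groups (edgeR's quasi-likelihood F test, Benjamini-Hochberg adjusted p under 0.05), against 61.2% of all genes tested. Their 3 classes did not follow each other. Summed over its 17 genes, the pump stood at 1140, 1133 and 1092 FPKM in Pam3CSK4+IFN-gamma, 1200.0 and 1182 in Pam3CSK4, 1178, 1191 and 1254 in IFN-gamma, and 1070.0, 1100.0 and 863 in Control. By this sum every treated library except Pam3CSK4+IFN-gamma replicate 3 lay above all Control libraries. By the median FPKM of the 17 genes, the Pam3CSK4 and IFN-gamma libraries again lay above Control. The medians with both agents, 55.71, 52.25 and 50.65, lay within those of Control, 54.33, 56.27 and 39.29. The 21 hydrolases summed to 1509, 1450.0 and 1410.0 FPKM in Pam3CSK4+IFN-gamma, 1521 and 1458 in Pam3CSK4, 2111, 2160.0 and 2233 in IFN-gamma, and 2707, 2871 and 2095 in Control. This sum, whose largest parts were Hexa and Man2b1, was lowest in the 5 libraries given Pam3CSK4, with no overlap with the others. IFN-gamma libraries lay within the range of Control. The median FPKM of the 21 hydrolases gave another order. It was 39.82, 37.55 and 39.16 in Pam3CSK4+IFN-gamma, 35.47 and 38.12 in Pam3CSK4, 39.57, 35.2 and 36.91 in IFN-gamma, and 47.53, 48.92 and 41.2 in Control. By the median the treated groups overlapped, and all their libraries lay below Control. The other 6 genes, dominated by Psap, summed to 2602, 2475 and 2759 FPKM in Pam3CSK4+IFN-gamma, 1760.0 and 1839 in Pam3CSK4, 4223, 4352 and 4463 in IFN-gamma, and 3049, 2871 and 2221 in Control. In this sum IFN-gamma alone gave the highest libraries and Pam3CSK4 alone the lowest. By the median FPKM of these 6 genes, IFN-gamma (231.4 to 293.7) overlapped with Control (197.6 to 270.5). Likewise the medians with both agents (167.4 to 215) overlapped with those of Pam3CSK4 (168.7 and 173.9). The median coefficient of variation of FPKM within a group, over the 44 genes, was 3.7% in Pam3CSK4+IFN-gamma, 5.08% in Pam3CSK4, 7.13% in IFN-gamma and 15.5% in Control. Over all genes tested, Control replicate 3 stood apart from the other Control libraries. A chi-square of counts per gene, larger where 2 libraries differ more, was 20.1 for Control replicates 1 and 2. It was 168 and 176 for these with replicate 3. FPKM also lacks the scaling between libraries that the tests used.

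**Figure D1:**
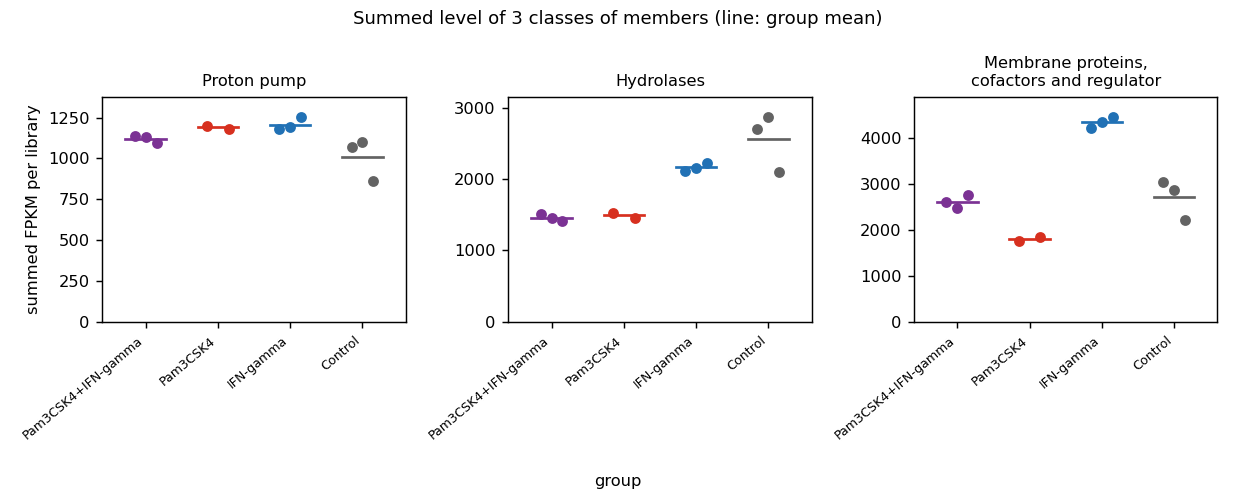
Summed FPKM per library for the 17 proton pump genes, the 21 hydrolase genes and the 6 membrane protein, cofactor and regulator genes; each point is a library and each line a group mean. Pump sums lie between 863 and 1254 in all 11 libraries, hydrolase sums are lowest in both groups given Pam3CSK4, and those of the remaining class are highest in IFN-gamma.

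With Pam3CSK4 alone against Control, 7 of the 44 genes rose and 16 fell (edgeR's quasi-likelihood test, Benjamini-Hochberg adjusted p under 0.05 over all genes tested), against 20.0% higher and 21.4% lower among all genes. The pump had 6 risers and 2 fallers of 17, the hydrolases 1 riser (Neu1) and 11 fallers of 21, and the remaining class no riser and 3 fallers of 6 (Lamp1, Lamp2 and Psap). The median log2 change was 0.29 for the pump and -0.52 for the hydrolases, beside -0.04 over all genes tested. Without Control replicate 3 the pump median was 0.12 and the hydrolase median -0.66, and Atp6ap1, Atp6v1b2, Atp6v1g1, Gaa, Grn, Ids, Manba and Tpp1 fell as well. Without Pam3CSK4 replicate 2 the count of risers was 4. Calls over all genes were not counted with a single library left out, here or in the comparisons below. Without the 3 libraries that carried mural and fibroblast transcripts 7 rose and 25 fell, of which 6 and 5 were pump genes and 1 and 16 hydrolases. The genes gained were those 8 and Asah1. Calls grew over all genes too in that setting, to 2882 higher and 2998 lower, from 2188 and 2344 with all libraries.

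With IFN-gamma alone against Control, 9 genes rose and 9 fell, against 20.0% and 21.6% of all genes, which is near the background in both directions. Of the pump, 6 rose and 3 fell; of the hydrolases 1 rose (Ppt1) and 6 fell; and of the remaining class 2 rose (Psap and Mcoln1). The median log2 change was 0.22 for the pump and -0.12 for the hydrolases, beside -0.07 over all genes. The count of fallers depended on single libraries. It was 5 without any 1 of Control replicates 1 and 2 and IFN-gamma replicates 1 and 3. Without Control replicate 3 it was 17, when Arsa, Atp6v1a, Gla, Hexa, Idua, Lamp1, Man2b1 and Naglu fell and Fuca1 rose as well. Whether calls over all genes moved likewise in these single-library settings was not counted. With those 3 libraries left out that carried mural and fibroblast transcripts, 10 rose, with Fuca1, and 14 fell, with Arsa, Atp6v1a, Hexa, Idua and Man2b1. Over all genes, 2508 rose and 2663 fell in that setting, against 2189 and 2361 with all libraries. Pump risers numbered 3 without IFN-gamma replicate 3, and the pump median was 0.09 without Control replicate 3. The hydrolase median was 0.00 without Control replicate 2 and -0.26 without Control replicate 3.

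With both agents against Control, 11 genes rose and 18 fell, against 23.4% and 24.2% of all genes. Pump genes made up 8 of the risers and 2 of the fallers, and hydrolases 3 of the risers (Gla, Neu1 and Ppt1) and 14 of the fallers. Lamp1 and Lamp2 were the other 2 fallers. The median log2 change was 0.29 for the pump, or 0.15 without Control replicate 3, and -0.52 for the hydrolases. Without Control replicate 3, Atp6ap1, Atp6v1b2, Atp6v1g1 and Grn fell as well, and so they did with all 3 of those libraries left out, when Atp6v0d1, Atp6v0e and Sgsh no longer passed. Leaving out all 3 gave 2958 higher and 2879 lower over all genes, against 2556 and 2646 with all libraries. The 3 comparisons with Control use the same Control libraries.

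Against IFN-gamma alone, cells given both agents had 7 risers and 18 fallers among the 44 genes, against 17.0% and 17.2% of all genes. The pump split 4 to 5, the hydrolases 3 to 9, and in the remaining class 4 of 6 fell (Lamp1, Lamp2, Mcoln1 and Psap). Risers numbered 3 or 4 without any single IFN-gamma library or without Pam3CSK4+IFN-gamma replicate 1 or 2. Without Control replicate 3, which enters this comparison through the shared estimate of spread, Atp6ap2 rose and Atp6v0c, Glb1 and Manba fell as well. Leaving out all 3 of those libraries, Atp6ap2 rose and Atp6v0a1, Atp6v0c, Glb1 and Tfeb fell as well. Over all genes that setting gave 2251 higher and 2140 lower, against 1856 and 1884 with all libraries. Against Pam3CSK4 alone, cells given both had 3 risers, Ppt1, Psap and Atp6v0c, and 1 faller, Arsb, against 6.06% and 3.04% of all genes. Without either Pam3CSK4 library only Ppt1 remained past the threshold. Without Control replicate 3, in the same way, risers numbered 6 with Gla, Lamp1 and Lamp2, and Galc fell as well. Leaving out all 3 gave the same additions except Lamp2. Over all genes 1200 then rose and 922 fell, against 663 and 332 with all libraries.

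**Figure D2:**
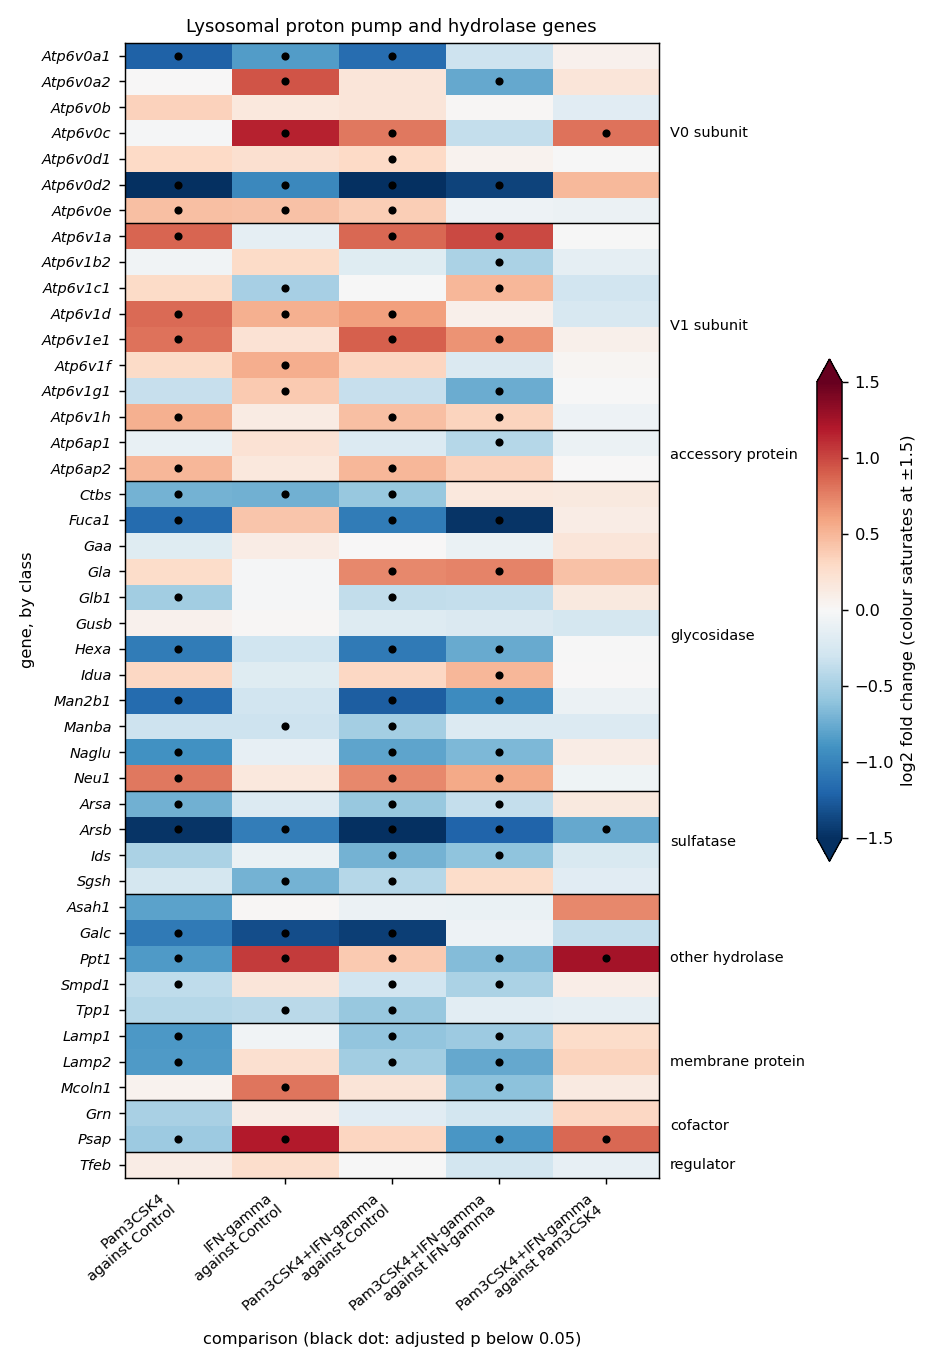
Log2 fold change of each of the 44 genes (rows, by class) in the 5 comparisons (columns), in red where the first-named group was higher and in blue where it was lower; a black dot marks an adjusted p under 0.05. V1 subunits are mostly red and glycosidases and sulfatases mostly blue in the comparisons of Pam3CSK4 and of both agents with Control, and the last column holds only 4 dots.

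Among the membrane (V0) subunits, Atp6v0d2, Atp6v0a1 and Atp6v0c gave the widest differences between groups. Changes are given from here on as the log2 fold change ± SE with the edgeR adjusted p over all genes tested, negative where the first-named group was lower. Atp6v0c codes for the proteolipid of the proton-carrying ring. It was at 154, 158 and 149.9 FPKM in Pam3CSK4+IFN-gamma, 94.4 and 94.95 in Pam3CSK4, 189.6, 187 and 213 in IFN-gamma and 98.7, 101 and 83.7 in Control. All IFN-gamma libraries lay above all others, those with both agents came next, and Pam3CSK4 libraries lay inside the Control range. The log2 change was 1.15 ± 0.13, adjusted p = 0.000126 with IFN-gamma and 0.79 ± 0.13, adjusted p = 0.000806 with both agents, both against Control, and -0.02 ± 0.14, adjusted p = 0.915 with Pam3CSK4 against Control. Both agents against Pam3CSK4 gave 0.81 ± 0.15, adjusted p = 0.00809; that call was lost without Pam3CSK4 replicate 1 (0.79, adjusted p = 0.0699) or 2 (0.83, adjusted p = 0.0706). Its processed pseudogene Atp6v0c-ps1 stayed at or under 0.144 FPKM.

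Atp6v0d2, an alternative d subunit of the rotor's membrane end that is best known from mouse osteoclasts, had 2.17, 2.46 and 2.86 FPKM in Pam3CSK4+IFN-gamma, 1.81 and 2.02 in Pam3CSK4, 5.27, 7.83 and 6.36 in IFN-gamma and 11.9, 17.9 and 10.6 in Control. Every treated library lay below every Control library, and those given Pam3CSK4 lay below those with IFN-gamma alone. Its fall was the deepest of the 44 in Pam3CSK4 against Control (-2.84 ± 0.31, adjusted p = 9.54e-05) and in both agents against Control (-2.36 ± 0.26, adjusted p = 6.20e-05), and it fell as well with IFN-gamma against Control (-0.97 ± 0.24, adjusted p = 0.0109). The common d subunit, Atp6v0d1, had 78.2, 82 and 83.9 FPKM in Pam3CSK4+IFN-gamma, 87.9 and 87.5 in Pam3CSK4, 78.04, 74.5 and 81.4 in IFN-gamma and 72.96, 72.7 and 65.8 in Control. Treated libraries all lay above Control, by a small margin that passed the test only with both agents (0.29 ± 0.10, adjusted p = 0.0394), a call lost without Pam3CSK4 replicate 2, IFN-gamma replicate 1 or 2, or any 1 of the libraries given both (adjusted p 0.0502 to 0.11). As a share of the FPKM of both d genes, Atp6v0d2 held 2.7 to 3.3% in Pam3CSK4+IFN-gamma, 2.02 and 2.26% in Pam3CSK4, 6.33 to 9.51% in IFN-gamma and 13.9 to 19.8% in Control.

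The a subunit, which lines the proton path and directs the pump to its membrane, is made from several genes, and their balance differed between the groups. Atp6v0a1 had 7.26, 8.53 and 8.12 FPKM in Pam3CSK4+IFN-gamma, 7.75 and 8.69 in Pam3CSK4, 7.72, 11.8 and 9.86 in IFN-gamma and 20.6, 22.6 and 12.5 in Control. It was lower than Control in every treated group, with a log2 change of -1.21 ± 0.30, adjusted p = 0.00963 with Pam3CSK4, -0.84 ± 0.26, adjusted p = 0.0256 with IFN-gamma and -1.15 ± 0.26, adjusted p = 0.00506 with both. The call with Pam3CSK4 was lost without Pam3CSK4 replicate 1 (-1.11, adjusted p = 0.0693), and that with IFN-gamma when Control replicate 1 or 2 was left out, or IFN-gamma replicate 1 or 3 (adjusted p 0.0602 to 0.088).

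Atp6v0a2 moved the other way, and in 1 group. It had 8.67, 8.59 and 8.54 FPKM in Pam3CSK4+IFN-gamma, 8.02 and 8.33 in Pam3CSK4, 13.3, 15.2 and 15.2 in IFN-gamma and 8.54, 7.68 and 7.998 in Control. The IFN-gamma libraries stood above all 8 others, which lay close together. Its log2 change was 0.95 ± 0.10, adjusted p = 7.78e-05 with IFN-gamma against Control, 0.00 ± 0.11, adjusted p = 0.999 with Pam3CSK4 against Control, and -0.77 ± 0.10, adjusted p = 0.000328 for both agents against IFN-gamma. The ratio of Atp6v0a2 to Atp6v0a1 FPKM was 1.19, 1.01 and 1.05 in Pam3CSK4+IFN-gamma, 1.03 and 0.959 in Pam3CSK4, 1.72, 1.29 and 1.54 in IFN-gamma, and 0.416, 0.34 and 0.642 in Control. Atp6v0a1 was thus the more abundant of this pair in every Control library and Atp6v0a2 in every IFN-gamma library. Tcirg1, the a3 gene known from mouse osteoclasts and lysosomes and not on the list, had the highest level of these a genes in all libraries, with mean FPKM of 86.9 in Pam3CSK4+IFN-gamma, 97.3 in Pam3CSK4, 58.1 in IFN-gamma and 54.2 in Control. It rose with Pam3CSK4 against Control (0.81 ± 0.17, adjusted p = 0.00493), and held 83.4 to 84.6% of the summed FPKM of these a genes in Pam3CSK4+IFN-gamma, 85.1 and 86.0% in Pam3CSK4, 68.2 to 74.1% in IFN-gamma and 64.9 to 68.6% in Control.

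**Figure D3:**
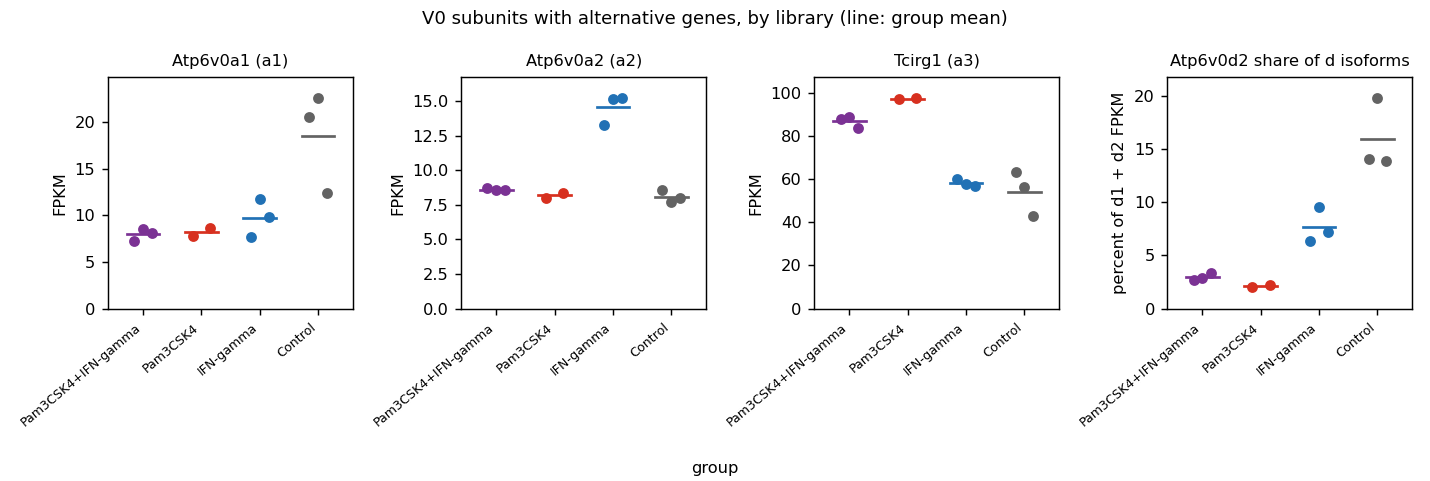
FPKM of the a-subunit genes Atp6v0a1, Atp6v0a2 and Tcirg1, and the share of Atp6v0d2 in the FPKM of both d-subunit genes (percent), by library; lines are group means. Atp6v0a1 and the Atp6v0d2 share are highest in Control, Atp6v0a2 in IFN-gamma, and Tcirg1 in the 2 groups given Pam3CSK4.

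The other V0 genes varied little. Atp6v0e, a small subunit whose promoter is printed above, rose in each treated group against Control, by 0.45 ± 0.15 with Pam3CSK4, 0.44 ± 0.13 with IFN-gamma and 0.36 ± 0.13 with both. These 3 calls were among the least stable: the Pam3CSK4 call was lost without Control replicate 2 or either Pam3CSK4 library (adjusted p 0.0554 to 0.18), the IFN-gamma call without IFN-gamma replicate 1 or 3 (adjusted p 0.0564 to 0.0699) and that for both without any 1 of 9 libraries, all but Control replicate 1 and IFN-gamma replicate 3 (adjusted p 0.0512 to 0.114). Atp6v0b, the second ring proteolipid, ranged from 38.8 to 65.8 FPKM over the 11 libraries and passed in no comparison.

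In the cytosolic (V1) sector, Pam3CSK4 went with higher transcripts of the A subunit of the catalytic head and of the stalk gene Atp6v1e1. Atp6v1d, another stalk gene, was higher with Pam3CSK4 than in Control but did not pass with both agents against IFN-gamma. Atp6v1a, the ATP-splitting A subunit, had 50.5, 50.6 and 50.6 FPKM in Pam3CSK4+IFN-gamma, 56.6 and 53.3 in Pam3CSK4, 25.8, 27.1 and 22.9 in IFN-gamma and 31.5, 30.6 and 26.4 in Control. All 5 libraries given Pam3CSK4 lay far above all 6 others. Its log2 change was 0.87 ± 0.13, adjusted p = 0.000609 with Pam3CSK4 against Control and 1.00 ± 0.12, adjusted p = 0.000203 with both agents against IFN-gamma, which share no library. Atp6v1e1, of the peripheral stalk, followed with 47.7, 45.8 and 48.4 FPKM in Pam3CSK4+IFN-gamma, 47.6 and 48.7 in Pam3CSK4, 32.2, 23.5 and 32.5 in IFN-gamma and 29.3, 27.96 and 23.4 in Control. Again the 2 groups given Pam3CSK4 stood apart from the other 2, with 0.82 ± 0.17, adjusted p = 0.00462 against Control and, for both agents, 0.68 ± 0.16, adjusted p = 0.00923 against IFN-gamma. Atp6v1h, a regulator of coupling between the sectors, rose by 0.53 ± 0.11 with Pam3CSK4 against Control and by 0.33 ± 0.10 with both agents against IFN-gamma; the second call was lost without IFN-gamma replicate 2 or 3 or Pam3CSK4+IFN-gamma replicate 1 or 2 (adjusted p 0.0643 to 0.0808).

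Atp6v1d, the rotor shaft, rose in all 3 treated groups. It had 90.3, 93.9 and 91.3 FPKM in Pam3CSK4+IFN-gamma, 122 and 111 in Pam3CSK4, 86.3, 86.5 and 87.6 in IFN-gamma and 61.02, 71.1 and 59.2 in Control. Pam3CSK4 libraries were the highest and none of the treated libraries overlapped with Control. The log2 change was 0.85 ± 0.12, adjusted p = 0.000521 with Pam3CSK4, 0.54 ± 0.11, adjusted p = 0.0039 with IFN-gamma and 0.61 ± 0.11, adjusted p = 0.00149 with both agents. Both agents against IFN-gamma gave only 0.07 ± 0.11, adjusted p = 0.647. The difference between the Pam3CSK4 effects with and without IFN-gamma is tested below.

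The remaining V1 genes did not follow Atp6v1a over all 4 groups. Atp6v1g1, also of the peripheral stalk, was highest with IFN-gamma and lowest in the 2 groups given Pam3CSK4, with 121, 122 and 105 FPKM in Pam3CSK4+IFN-gamma, 128 and 122 in Pam3CSK4, 183, 197 and 199 in IFN-gamma and 165, 169.6 and 135 in Control. It changed by -0.75 ± 0.14, adjusted p = 0.00275 with both agents against IFN-gamma; its rise with IFN-gamma against Control (0.40 ± 0.14, adjusted p = 0.0442) was lost without any 1 of 8 libraries (adjusted p 0.0505 to 0.116), all but Control replicates 1 and 2 and Pam3CSK4+IFN-gamma replicate 3. Atp6v1c1, a stator subunit that takes part in pump assembly, was highest with Pam3CSK4 and lowest with IFN-gamma, as Atp6v1a was. Its mean FPKM was 97.58 in Pam3CSK4+IFN-gamma, 128.8 in Pam3CSK4, 68.81 in IFN-gamma and 103.5 in Control. Against Control it did not pass with Pam3CSK4 (0.28 ± 0.18, adjusted p = 0.237) or with both agents (-0.01 ± 0.16, adjusted p = 0.974). It was lower with IFN-gamma than in Control (-0.50 ± 0.16, adjusted p = 0.0347) and higher with both agents than with IFN-gamma (0.50 ± 0.16, adjusted p = 0.0433). Neither of those calls held without single libraries: the first was lost without Control replicate 1 or 2, any IFN-gamma library or Pam3CSK4+IFN-gamma replicate 1 or 2 (adjusted p 0.0506 to 0.119), and the second without any library except Control replicates 2 and 3 (adjusted p 0.051 to 0.119). Atp6v1f, of the rotor, passed only with IFN-gamma against Control (0.54 ± 0.17, adjusted p = 0.0258), a call lost without IFN-gamma replicate 3 (0.44, adjusted p = 0.0854). Atp6v1b2, the non-catalytic partner of the A subunit, had 40.9, 41.95 and 41.4 FPKM in Pam3CSK4+IFN-gamma, 48.4 and 49.7 in Pam3CSK4, 56.9, 57.4 and 57.1 in IFN-gamma and 53.5, 56.3 and 39.3 in Control. It passed only with both agents against IFN-gamma (-0.47 ± 0.16, adjusted p = 0.0442), and was lost there without any 1 of the Pam3CSK4, IFN-gamma or Pam3CSK4+IFN-gamma libraries (adjusted p 0.0582 to 0.118). The transcripts of the A and B subunits, which alternate in one ring, were thus ordered differently over the groups; their ratio was not tested.

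Of the accessory proteins, Atp6ap2, also known as the prorenin receptor, had 110.2, 108 and 114 FPKM in Pam3CSK4+IFN-gamma, 124 and 113 in Pam3CSK4, 86.8, 91.8 and 81.9 in IFN-gamma and 84.97, 92.3 and 71.3 in Control. All libraries given Pam3CSK4 were above all others. It rose by 0.49 ± 0.14, adjusted p = 0.0222 with Pam3CSK4 and by 0.50 ± 0.13, adjusted p = 0.0109 with both agents against Control; the first call was lost without either Pam3CSK4 library (adjusted p 0.0651 to 0.109). Atp6ap1, which assists pump assembly, passed only as a fall with both agents against IFN-gamma (-0.42 ± 0.13, adjusted p = 0.0336), lost without Pam3CSK4 replicate 2 or any 1 of the IFN-gamma or Pam3CSK4+IFN-gamma libraries (adjusted p 0.0509 to 0.101).

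**Figure D4:**
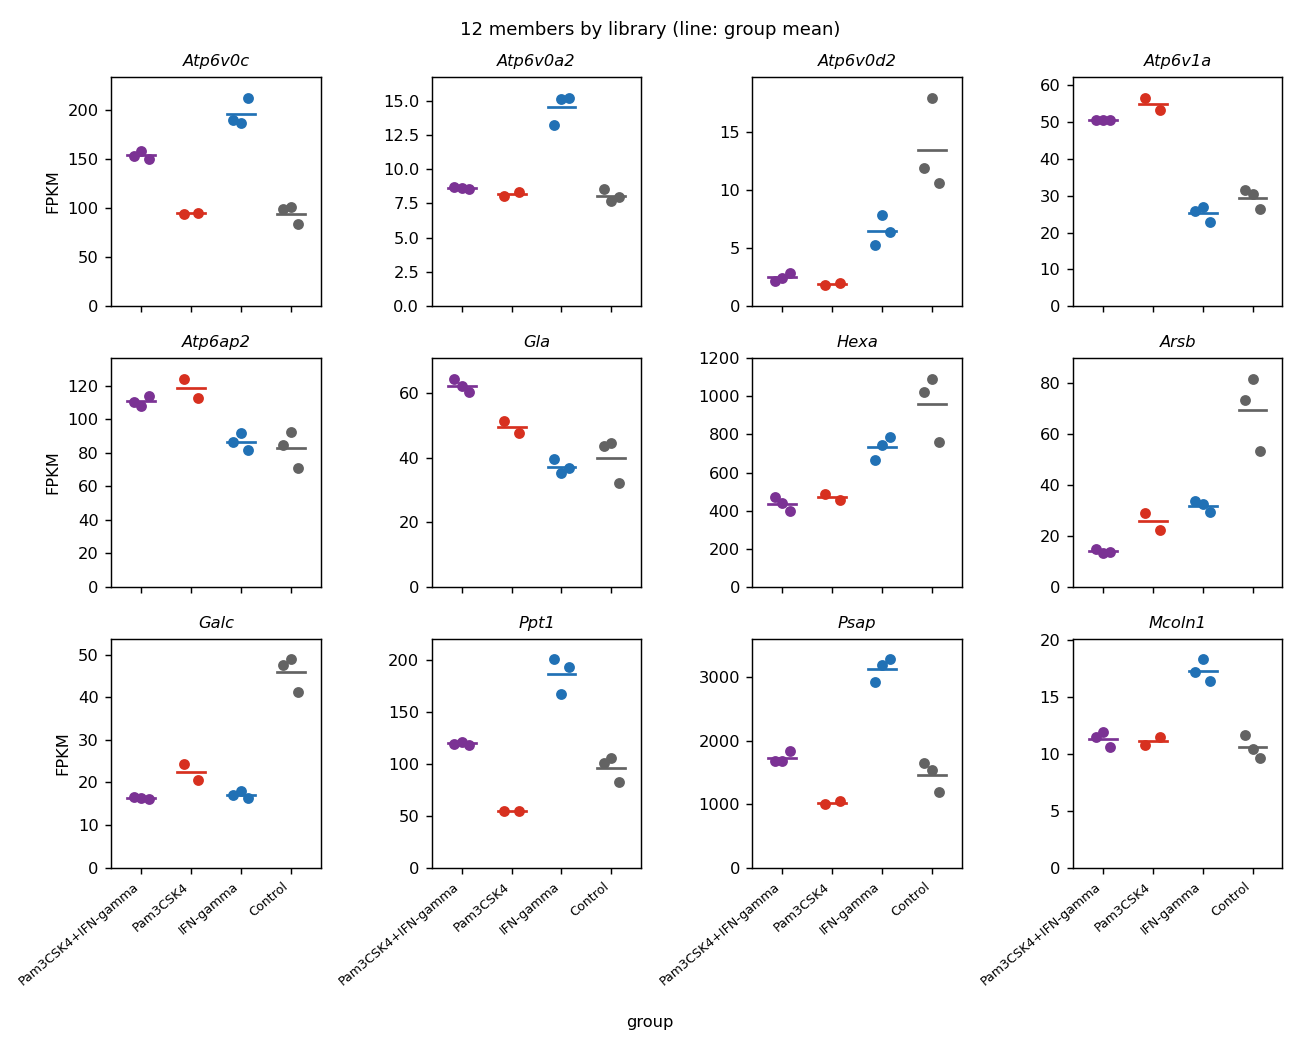
FPKM of 12 of the 44 genes by library; each point is a library and each line a group mean, with its own linear axis from 0 in each panel. Atp6v1a and Atp6ap2 are highest in the 2 groups given Pam3CSK4, Atp6v0c, Atp6v0a2, Ppt1, Psap and Mcoln1 in IFN-gamma, and Hexa, Arsb, Galc and Atp6v0d2 in Control.

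Glycosidases, which trim sugars from glycoproteins, glycolipids and glycosaminoglycans, contributed 6 of the 11 hydrolases that fell with Pam3CSK4 against Control. The most abundant was Hexa, the alpha subunit of the beta-hexosaminidase that degrades gangliosides, with 474, 438 and 400.5 FPKM in Pam3CSK4+IFN-gamma, 489.8 and 455 in Pam3CSK4, 665, 746 and 785 in IFN-gamma and 1024, 1093 and 759 in Control. The 5 libraries given Pam3CSK4 lay below all others, and IFN-gamma overlapped with Control through Control replicate 3. It changed by -1.05 ± 0.20, adjusted p = 0.00281 with Pam3CSK4 and by -1.05 ± 0.18, adjusted p = 0.000981 with both agents against Control, and by -0.75 ± 0.18, adjusted p = 0.00954 with both agents against IFN-gamma. With IFN-gamma against Control it did not pass (-0.30 ± 0.18, adjusted p = 0.197), but it did without Control replicate 3 (-0.48, adjusted p = 0.00419).

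Man2b1, the lysosomal alpha-mannosidase, had 205, 198 and 211 FPKM in Pam3CSK4+IFN-gamma, 232 and 238 in Pam3CSK4, 369.6, 395 and 413 in IFN-gamma and 573, 549.7 and 410.3 in Control. It changed by -1.15 ± 0.18, adjusted p = 0.000979 with Pam3CSK4 and by -1.24 ± 0.16, adjusted p = 0.000196 with both agents against Control, and by -0.95 ± 0.16, adjusted p = 0.00165 with both agents against IFN-gamma. Against Control, IFN-gamma did not pass with all libraries and passed without Control replicate 3 (-0.47, adjusted p = 0.000625), the library with which the IFN-gamma range overlapped.

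Fuca1, the fucosidase, was lowest in both groups given Pam3CSK4. It had 42.8, 43.4 and 44.4 FPKM in Pam3CSK4+IFN-gamma, 43.1 and 43.6 in Pam3CSK4, 120.3, 118 and 120 in IFN-gamma and 109, 105 and 69.5 in Control. The 5 libraries given Pam3CSK4 lay close together and below every other library, and the IFN-gamma libraries lay above those of Control (0.42 ± 0.18, adjusted p = 0.0924). The change was -1.16 ± 0.21, adjusted p = 0.00211 with Pam3CSK4 against Control and -1.47 ± 0.19, adjusted p = 0.000322 with both agents against IFN-gamma, the deepest fall of the 44 genes in that comparison. Naglu, an enzyme of heparan sulfate breakdown, went with these genes: -0.90 ± 0.20, adjusted p = 0.00577 with Pam3CSK4 and -0.79 ± 0.17, adjusted p = 0.0046 with both agents against Control, and -0.67 ± 0.17, adjusted p = 0.0154 with both against IFN-gamma, where leaving out IFN-gamma replicate 3 (-0.59, adjusted p = 0.0534) or Pam3CSK4+IFN-gamma replicate 3 (-0.62, adjusted p = 0.0544) ended the call.

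Gla and Neu1 went against this direction. Gla, the alpha-galactosidase that is deficient in Fabry disease, had 64.6, 62.4 and 60.4 FPKM in Pam3CSK4+IFN-gamma, 51.3 and 47.6 in Pam3CSK4, 39.6, 35.2 and 36.9 in IFN-gamma and 43.6, 44.5 and 32.3 in Control. The libraries given both agents were the highest, followed by Pam3CSK4, and IFN-gamma lay within the Control range. It rose by 0.72 ± 0.15, adjusted p = 0.00378 with both agents against Control and by 0.74 ± 0.15, adjusted p = 0.00508 against IFN-gamma; with Pam3CSK4 against Control the change was 0.27 ± 0.17, adjusted p = 0.221. Neu1, the lysosomal sialidase, had 27.5, 31.1 and 26.8 FPKM in Pam3CSK4+IFN-gamma, 30.4 and 33.9 in Pam3CSK4, 18.98, 18.9 and 19.2 in IFN-gamma and 21.4, 19.7 and 13.4 in Control. Its libraries given Pam3CSK4 lay above all others, with 0.79 ± 0.21, adjusted p = 0.0147 with Pam3CSK4 and 0.73 ± 0.19, adjusted p = 0.012 with both agents against Control. The first of these was lost without Pam3CSK4 replicate 2 (0.70, adjusted p = 0.0968). The call for both agents against IFN-gamma (0.57 ± 0.19, adjusted p = 0.0452) was lost without any 1 of 9 libraries (adjusted p 0.0503 to 0.139), all but Control replicates 1 and 3. Idua, a glycosaminoglycan hydrolase, passed only with both agents against IFN-gamma (0.49 ± 0.15, adjusted p = 0.0268), lost without any IFN-gamma library or Pam3CSK4+IFN-gamma replicate 1 or 2 (adjusted p 0.053 to 0.0799).

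The remaining glycosidases were smaller or closer to the threshold. Ctbs, the chitobiase, fell in every treated group against Control, with log2 changes of -0.71 ± 0.14 with Pam3CSK4, -0.72 ± 0.13 with IFN-gamma and -0.57 ± 0.13 with both; it was at 4.73, 4.67 and 4.72 FPKM in Pam3CSK4+IFN-gamma, 4.9 and 4.26 in Pam3CSK4 and 4.59, 4.07 and 3.95 in IFN-gamma, against 7.25, 8.35 and 6.54 in Control. Manba, the beta-mannosidase, fell with both agents against Control (-0.52 ± 0.10, adjusted p = 0.00252); its fall with IFN-gamma (-0.31 ± 0.10, adjusted p = 0.033) was lost without any 1 of 6 libraries, replicates 1 and 2 of Control, 1 and 3 of IFN-gamma and 1 and 2 of Pam3CSK4+IFN-gamma (adjusted p 0.0513 to 0.102). Glb1, the beta-galactosidase, fell with Pam3CSK4 (-0.52 ± 0.15, adjusted p = 0.0195) and with both agents against Control (-0.37 ± 0.13, adjusted p = 0.0402). The first of those was lost without Control replicate 1 or 2 or either Pam3CSK4 library (adjusted p 0.0551 to 0.105), and the second without any 1 of 9 libraries (adjusted p 0.0505 to 0.134), all but Control replicate 3 and IFN-gamma replicate 3. Gusb, the beta-glucuronidase, at 99.0 to 156 FPKM, and Gaa, the glycogen-degrading alpha-glucosidase, at 35.5 to 43.5 FPKM, passed in no comparison. Without Control replicate 3, Gaa passed with Pam3CSK4 against Control (-0.28, adjusted p = 0.01). The loci of Manba, Glb1 and Idua overlap those of other detected genes. Oaz2-ps, at up to 6.76 FPKM, overlaps Manba, whose group means were 4.81 to 7.29, by 569 bases. Tmppe, at up to 4.74 FPKM, overlaps Glb1 by 10106 bases, and Dgkq, at up to 1.58, overlaps Idua by 9342. The part of their reads in the counts of Manba, Glb1 and Idua was not tested.

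All 4 sulfatases, which remove sulfate groups from glycosaminoglycans or sulfatide, fell with both agents against Control. Arsb, which acts on dermatan and chondroitin sulfate, fell furthest. It had 14.9, 13.3 and 13.7 FPKM in Pam3CSK4+IFN-gamma, 29.01 and 22.4 in Pam3CSK4, 33.7, 32.7 and 29.3 in IFN-gamma and 73.3, 81.8 and 53.4 in Control. The 4 groups came in that order from lowest to highest, with no overlap between neighbours, though Pam3CSK4 and IFN-gamma were not tested against each other. The log2 change against Control was -1.47 ± 0.22, adjusted p = 0.000613 with Pam3CSK4, -1.04 ± 0.19, adjusted p = 0.00186 with IFN-gamma and -2.24 ± 0.19, adjusted p = 1.49e-05 with both. Arsb also fell with both agents against IFN-gamma (-1.20 ± 0.19, adjusted p = 0.00107) and against Pam3CSK4 (-0.77 ± 0.20, adjusted p = 0.0455), the last of which was lost without any 1 of 9 libraries (adjusted p 0.0572 to 0.282), all but Control replicates 2 and 3. Arsa, the sulfatide sulfatase, at 3.91, 3.64 and 3.98 FPKM in Pam3CSK4+IFN-gamma, 3.601 and 3.85 in Pam3CSK4, 5.29, 4.79 and 4.63 in IFN-gamma and 6.39, 5.699 and 6.13 in Control, changed by -0.72 ± 0.09, adjusted p = 0.000232 with Pam3CSK4 and by -0.57 ± 0.08, adjusted p = 0.000307 with both against Control, and by -0.36 ± 0.08, adjusted p = 0.00726 with both against IFN-gamma. Ids, an iduronate sulfatase, fell with both agents against Control (-0.71 ± 0.19, adjusted p = 0.0125) and against IFN-gamma (-0.61 ± 0.19, adjusted p = 0.0343); the second was lost without IFN-gamma replicate 2 or 3 or any 1 of the libraries given both (adjusted p 0.0643 to 0.115). Sgsh, a heparan sulfate sulfatase at only 1.03 to 2.31 FPKM, fell with IFN-gamma (-0.71 ± 0.16, adjusted p = 0.00641) and, less stably, with both agents against Control (-0.43 ± 0.16, adjusted p = 0.0474), where any 1 of 9 libraries, all but Control replicate 2 and IFN-gamma replicate 3, ended the call when left out (adjusted p 0.0529 to 0.17).

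The hydrolases of lipids, fatty-acylated proteins and peptides parted company. Ppt1, which removes palmitate from proteins, had 119, 121 and 119 FPKM in Pam3CSK4+IFN-gamma, 54.4 and 54.6 in Pam3CSK4, 201, 168 and 193 in IFN-gamma and 101, 106 and 82.2 in Control. IFN-gamma libraries were the highest and Pam3CSK4 libraries the lowest, and no 2 groups overlapped. Its log2 change was -0.85 ± 0.16, adjusted p = 0.00244 with Pam3CSK4 against Control, 1.04 ± 0.14, adjusted p = 0.000387 with IFN-gamma against Control and 1.24 ± 0.16, adjusted p = 0.00133 with both agents against Pam3CSK4. The smaller rise with both agents against Control (0.39 ± 0.14, adjusted p = 0.043) was lost without Control replicate 1, IFN-gamma replicate 1, or any 1 of the Pam3CSK4 or Pam3CSK4+IFN-gamma libraries (adjusted p 0.0503 to 0.113). The Ppt1 locus overlaps that of Cap1 by 129 bases and the strand setting of the counts is not given. Cap1 had 148, 148 and 89.5 FPKM in Pam3CSK4+IFN-gamma, 84.6 and 164 in Pam3CSK4, 149, 159 and 160.3 in IFN-gamma, and 205, 207 and 91.4 in Control. The part of Cap1 reads in the Ppt1 counts was not tested.

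Galc, the galactosylceramidase that digests a main lipid of myelin, had 16.6, 16.2 and 16.1 FPKM in Pam3CSK4+IFN-gamma, 24.3 and 20.5 in Pam3CSK4, 17.1, 17.99 and 16.3 in IFN-gamma and 47.5, 48.9 and 41.2 in Control. All 8 treated libraries lay far below all Control libraries. Against Control it changed by -1.06 ± 0.14, adjusted p = 0.000263 with Pam3CSK4, -1.33 ± 0.12, adjusted p = 3.17e-05 with IFN-gamma and -1.41 ± 0.12, adjusted p = 1.34e-05 with both, and IFN-gamma and the combination overlapped (-0.08 ± 0.12, adjusted p = 0.645). Smpd1, the acid sphingomyelinase, at 11.5 to 18.6 FPKM, changed by -0.39 ± 0.09, adjusted p = 0.00673 with Pam3CSK4 and -0.29 ± 0.08, adjusted p = 0.0126 with both agents against Control, and by -0.47 ± 0.08, adjusted p = 0.00147 with both against IFN-gamma. Tpp1, a tripeptidyl peptidase, had 115, 111 and 110.1 FPKM in Pam3CSK4+IFN-gamma, 131 and 134 in Pam3CSK4, 133, 119.7 and 120.5 in IFN-gamma and 186, 197 and 143 in Control. Every treated library was below every Control library. It fell with both agents (-0.57 ± 0.15, adjusted p = 0.0106) and, at the threshold, with IFN-gamma (-0.41 ± 0.15, adjusted p = 0.05), where leaving out any library except Control replicate 3 ended the call (adjusted p 0.062 to 0.165); with Pam3CSK4 it did not pass with all libraries (-0.43 ± 0.17, adjusted p = 0.0642) and passed without Control replicate 3 (-0.60, adjusted p = 0.000152).

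Asah1, the acid ceramidase, varied widely within groups. It had 82.2, 82.8 and 83.2 FPKM in Pam3CSK4+IFN-gamma, 57.7 and 50.5 in Pam3CSK4, 131, 71.1 and 64.5 in IFN-gamma and 68.6, 118 and 93.4 in Control. IFN-gamma replicate 1 stood far above the other 2 of its group, and the Control libraries spread from 68.6 to 118 FPKM. It passed in no comparison with all libraries; with Pam3CSK4 against Control it was -0.81 ± 0.30, adjusted p = 0.0573, and passed when Control replicate 1 (-0.97, adjusted p = 0.0378) or, through the shared estimate of spread, IFN-gamma replicate 1 (-0.81, adjusted p = 0.0148) was left out.

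Psap, the precursor of the saposins that present lipids to several of these hydrolases, was the most abundant of the 44 genes. It had 1677, 1675 and 1841 FPKM in Pam3CSK4+IFN-gamma, 998 and 1048 in Pam3CSK4, 2929, 3201 and 3285 in IFN-gamma and 1653, 1538 and 1193 in Control. IFN-gamma libraries lay above all others, the libraries given both agents lay above all Control libraries by a narrow margin, and Pam3CSK4 libraries lay below. The log2 change was 1.19 ± 0.16, adjusted p = 0.000424 with IFN-gamma against Control and -0.87 ± 0.16, adjusted p = 0.00288 with both agents against IFN-gamma. A further 2 calls rested on single libraries. With Pam3CSK4 against Control the change of -0.54 ± 0.18 was lost without Control replicate 1 or 2, either Pam3CSK4 library, IFN-gamma replicate 2 or Pam3CSK4+IFN-gamma replicate 1 or 2 (adjusted p 0.0552 to 0.162), and with both agents against Pam3CSK4 the rise of 0.87 ± 0.18 was lost without either Pam3CSK4 library or Pam3CSK4+IFN-gamma replicate 2 (adjusted p 0.0541 to 0.134). Grn, the precursor of the granulins, did not share the rise: it was at 376, 282 and 370.3 FPKM in Pam3CSK4+IFN-gamma, 288 and 304 in Pam3CSK4, 493, 368 and 380 in IFN-gamma and 448, 450.5 and 323 in Control. Its groups overlapped except that Pam3CSK4 lay below both IFN-gamma and Control; the difference from Control passed only without Control replicate 3 (-0.67, adjusted p = 0.00486). The ratio of Psap to Grn FPKM was 4.46 to 5.94 in Pam3CSK4+IFN-gamma, 3.45 and 3.46 in Pam3CSK4, 5.94 to 8.69 in IFN-gamma and 3.41 to 3.7 in Control.

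Lamp1 and Lamp2, the glycoproteins that line the lysosomal membrane, fell wherever Pam3CSK4 was given. Lamp1 had 479.7, 449.8 and 478 FPKM in Pam3CSK4+IFN-gamma, 410.4 and 428 in Pam3CSK4, 687, 664 and 694 in IFN-gamma and 849, 779 and 620.5 in Control. Lamp2 had 54.3, 52.6 and 55.5 FPKM in Pam3CSK4+IFN-gamma, 49.3 and 43.6 in Pam3CSK4, 94.7, 96.7 and 82.8 in IFN-gamma and 83.3, 90.5 and 72.2 in Control. For both genes the 5 libraries given Pam3CSK4 lay below all 6 others, and IFN-gamma overlapped with Control. Lamp1 changed by -0.87 ± 0.17, adjusted p = 0.00266 with Pam3CSK4 against Control and -0.55 ± 0.14, adjusted p = 0.0167 with both agents against IFN-gamma, a call lost without IFN-gamma replicate 3 (-0.51, adjusted p = 0.0506) or Pam3CSK4+IFN-gamma replicate 2 (-0.53, adjusted p = 0.0581). Lamp2 changed by -0.85 ± 0.15, adjusted p = 0.00148 and -0.76 ± 0.13, adjusted p = 0.00158 in the same 2 comparisons.

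Mcoln1, the lysosomal calcium channel TRPML1, rose with IFN-gamma alone. It had 11.5, 11.9 and 10.7 FPKM in Pam3CSK4+IFN-gamma, 10.8 and 11.5 in Pam3CSK4, 17.2, 18.3 and 16.4 in IFN-gamma and 11.7, 10.4 and 9.61 in Control. The IFN-gamma libraries lay above all others and the other 3 groups overlapped. The change was 0.80 ± 0.12, adjusted p = 0.000609 with IFN-gamma against Control and -0.61 ± 0.12, adjusted p = 0.00314 with both agents against IFN-gamma. Tfeb itself was low, at 2.47 to 4.22 FPKM, and passed in no comparison; its largest change was -0.38 ± 0.31, adjusted p = 0.432 in the difference between the effects of Pam3CSK4 with and without IFN-gamma.

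In all, 2 pairs of comparisons use separate libraries and so show each agent on 2 backgrounds. For Pam3CSK4 (Pam3CSK4 against Control, and both agents against IFN-gamma), 16 genes passed in both, all 16 in the same direction: Atp6v1a, Atp6v1e1, Atp6v1h and Neu1 rose, and Atp6v0d2, Arsa, Arsb, Fuca1, Hexa, Lamp1, Lamp2, Man2b1, Naglu, Ppt1, Psap and Smpd1 fell. Over all genes tested, 19.6% passed in both in the same direction. Across the 44 genes the 2 sets of changes had Pearson's r = 0.76 and Spearman's rho = 0.73, given as a description because genes are not independent and the libraries share their processing. For IFN-gamma (IFN-gamma against Control, and both agents against Pam3CSK4), 4 genes passed in both: Arsb, Atp6v0c, Ppt1 and Psap. Over all genes tested, 6.49% passed in both in the same direction. A further 14 of the 44 passed only without Pam3CSK4. Over all genes, 2189 rose and 2361 fell with IFN-gamma against Control, and 777 passed in both comparisons, whatever their direction. Most genes that passed without Pam3CSK4 thus did not pass with it over all genes either. Here r was 0.52 and rho 0.32 over the 44 genes. By class, r in the IFN-gamma pair was 0.17 for the 17 pump genes and 0.73 for the 21 hydrolases, and in the Pam3CSK4 pair 0.79 and 0.81. Over all genes tested r was 0.65 for the Pam3CSK4 pair and 0.37 for the IFN-gamma pair. The median size of the log2 change without and with the other agent was 0.49 and 0.45 for Pam3CSK4, and 0.28 and 0.15 for IFN-gamma, beside 0.41 and 0.32, and 0.38 and 0.20, over all genes tested. The second IFN-gamma comparison has only 2 Pam3CSK4 libraries on one side, and passing in one comparison and not in another is not itself a difference.

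**Figure D5:**
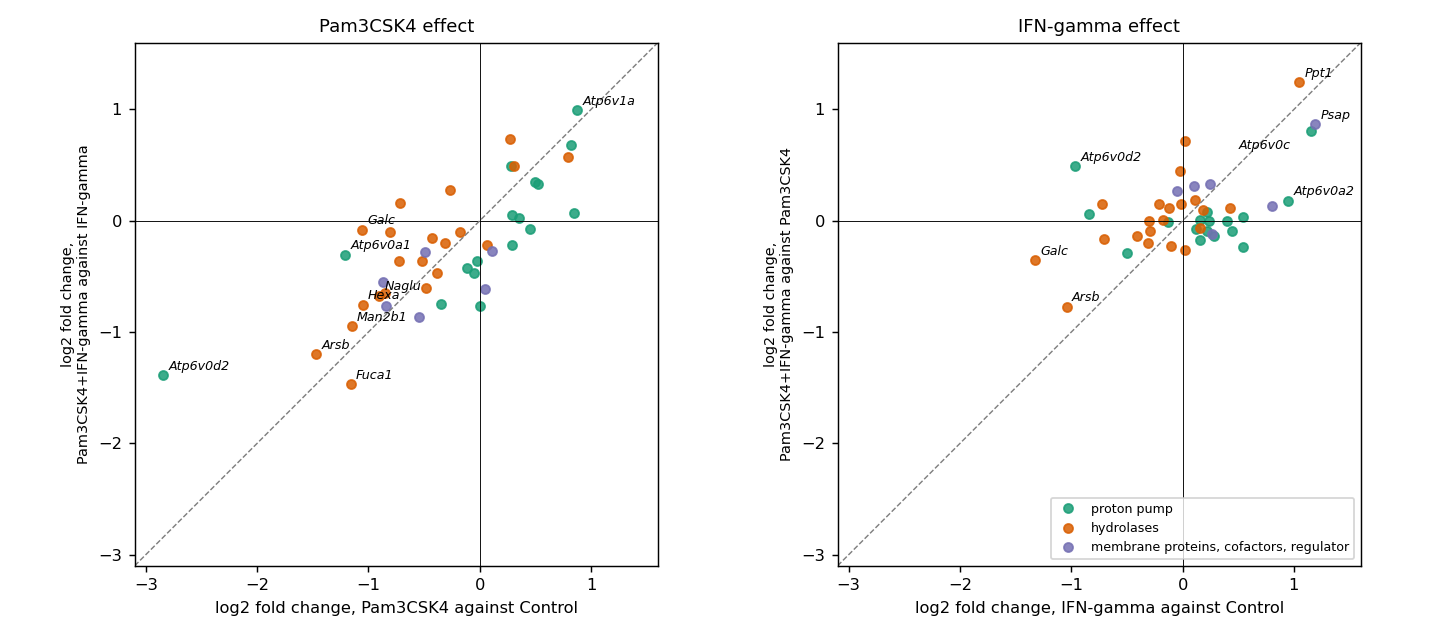
Log2 fold change of the 44 genes for Pam3CSK4 (left) and IFN-gamma (right), without the other agent on the horizontal axis and with it on the vertical axis; the dashed line marks equal change. The sign is the same on both axes for 36 of the 44 genes on the left and for 24 on the right. The share of all genes with the same sign was not counted. On the left the straight-line slope is 0.57 over the 44 genes, 0.51 for the pump and 0.81 for the hydrolases. Genes such as Galc, Atp6v0a1, Atp6v0d2, Atp6v1d, Ctbs, Atp6v0a2 and Mcoln1 lie away from the dashed line there. On the right most pump genes spread horizontally about a vertical value of 0, with Ppt1, Psap and Atp6v0c at the upper right.

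The difference itself, the interaction, was tested as the change made by Pam3CSK4 in cells with IFN-gamma, less its change in cells without. It passed for 6 of the 44 genes, 3 higher and 3 lower, against 8.01% of all genes in the higher and 8.01% in the lower direction, so the count is near the background. Atp6v0a2 (-0.77 ± 0.15, adjusted p = 0.0088) and Galc (0.98 ± 0.18, adjusted p = 0.0074) passed in every alternative setting tried. For Atp6v0a2 the Pam3CSK4 effect was -0.77 ± 0.10 with IFN-gamma and 0.00 ± 0.11 without it, and for Galc -0.08 ± 0.12 with and -1.06 ± 0.14 without. The other 4 were Atp6v0d2 (1.46 ± 0.38, adjusted p = 0.0297), Ctbs (0.87 ± 0.19, adjusted p = 0.0155), Atp6v1d (-0.77 ± 0.16, adjusted p = 0.0141) and Mcoln1 (-0.67 ± 0.17, adjusted p = 0.0311). They were lost without single libraries: Atp6v1d without Pam3CSK4 replicate 1 (-0.72, adjusted p = 0.0507), Ctbs without Pam3CSK4 replicate 2 (0.78, adjusted p = 0.0831), Atp6v0d2 without either Pam3CSK4 library, IFN-gamma replicate 1 or 3 or Pam3CSK4+IFN-gamma replicate 2 or 3 (adjusted p 0.0553 to 0.0992), and Mcoln1 without any 1 of 8 libraries, all but Control replicates 1 and 3 and IFN-gamma replicate 1 (adjusted p 0.0518 to 0.13). Without Pam3CSK4 replicate 2 the count of higher interactions was 1, and without Pam3CSK4 replicate 1 that of lower ones was 1. Without Control replicate 3 there were 13 higher, 10 of them new (Arsa, Atp6v0a1, Atp6v1c1, Gla, Glb1, Hexa, Idua, Lamp1, Man2b1 and Tpp1), and 4 lower, with Atp6v0e. Leaving out all 3 libraries with mural and fibroblast transcripts gave 12 higher, the additions being Arsa, Asah1, Atp6v0a1, Atp6v1c1, Gla, Hexa, Lamp1, Naglu and Tpp1. Over all genes that setting gave 1601 higher and 1499 lower interactions, against 876 and 876 with all libraries. Calls over all genes were not counted without Control replicate 3 alone.

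Of 63 further lysosomal genes, listed by name and not among the 44, 55 were tested. With Pam3CSK4 against Control 9 rose and 19 fell, against 20.0% and 21.4% of all genes. IFN-gamma against Control gave 9 and 7, against 20.0% and 21.6%, and both agents against Control 12 and 20, against 23.4% and 24.2%. Both agents gave 9 and 13 against IFN-gamma, beside 17.0% and 17.2% of all genes, and 1 and 2 against Pam3CSK4, beside 6.06% and 3.04%. Most of these counts of risers lie near or under the share over all genes. The largest rise was that of Acp5, the tartrate-resistant acid phosphatase of mouse osteoclasts and macrophages, with mean FPKM of 181 in Pam3CSK4+IFN-gamma, 301 in Pam3CSK4, 2.76 in IFN-gamma and 2.48 in Control (6.91 ± 0.21, adjusted p = 1.02e-07 with Pam3CSK4 against Control). Acp5 thus rose under the same treatment in which Atp6v0d2, another gene known from osteoclasts, fell. Mcoln2, a relative of Mcoln1, rose by 2.29 ± 0.27, adjusted p = 0.000173 with Pam3CSK4 against Control, with mean FPKM of 2.15 in Pam3CSK4 and 0.437 in Control, whereas Mcoln1 was 0.05 ± 0.13, adjusted p = 0.771. Gm2a, the activator protein that hands ganglioside to the enzyme that contains the Hexa product, had mean FPKM of 104 in Pam3CSK4+IFN-gamma, 97.7 in Pam3CSK4, 242 in IFN-gamma and 199 in Control. It fell with Pam3CSK4 against Control (-1.06 ± 0.17, adjusted p = 0.00112) and with both agents against IFN-gamma (-1.23 ± 0.15, adjusted p = 0.000266), as Hexa did in these 2 comparisons.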

How the data were processed

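RNA of 11 libraries of cultured adult mouse microglia was analysed. The authors deposited a read count and an FPKM value per gene and library, per the file headers; TopHat2 2.1.0, Cufflinks 2.1.1, Cuffdiff and mm10 are named, per the submitters' processing notes, without their roles, and the counting tool and strand setting are not stated there or in the labels. In 6617 genes with over 200 counts in each library, FPKM equalled the count over a gene constant and the library total (largest relative deviation 2.82e-06). FPKM is shown as a level; changes come from counts, so TMM scaling makes them differ somewhat from FPKM ratios.

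The 10938 genes that reached FPKM 1 in 2 or more libraries were fitted with edgeR 4.0.16 (R 4.3.3, TMM, quasi-likelihood test, 1 fit of 4 group means, two-sided, Benjamini-Hochberg adjusted p under 0.05). Changes are log2 fold changes ± SE, the SE being the change over the square root of the F statistic. The fit was tested on simulated counts. Alternatives were RLE scaling, DESeq2 1.42.0, limma 3.58.1 on log2(FPKM + 1) and log2(FPKM + 0.1), other filters, the 2 groups alone, a replicate block, and leaving out each library or the 3 with mural and fibroblast transcripts. Plots and descriptions used Python 3.11.15 and matplotlib. Genes named with values were up to 4 largest rises and falls in each comparison, a panel of 13, and, as all members are accounted for, the rest briefly. Members and lists were chosen with earlier results of these data known. Promoter sequences are RefSeq's (GRCm38.p6).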

Additional observations from a re-analysis of the deposited data

Results flagged for a closer look

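For 6 genes the effect of Pam3CSK4 on the log2 scale differed between cells with and without IFN-gamma by a test of that difference (edgeR's quasi-likelihood test, all 11 libraries). The change with IFN-gamma less that without was positive for Atp6v0d2 (1.46 ± 0.38, adjusted p = 0.0297), Galc (0.98 ± 0.18, adjusted p = 0.0074) and Ctbs (0.87 ± 0.19, adjusted p = 0.0155). Their changes were -1.39, -0.08 and 0.16 with IFN-gamma and -2.84, -1.06 and -0.71 without. The difference was negative for Atp6v0a2 (-0.77 ± 0.15, adjusted p = 0.0088), Atp6v1d (-0.77 ± 0.16, adjusted p = 0.0141) and Mcoln1 (-0.67 ± 0.17, adjusted p = 0.0311). Here the changes were -0.77, 0.07 and -0.61 with IFN-gamma and 0.00, 0.85 and 0.05 without. Of the 6 genes, Atp6v0a2 and Galc passed in every alternative tried, and the other 4 were lost in at least 1.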

How the results depend on the processing

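Of the genes called, the number called in every alternative was 15 of 23 for Pam3CSK4 against Control, 11 of 18 for IFN-gamma against Control, 22 of 29 for both agents against Control, 16 of 25 for both against IFN-gamma, 1 of 4 for both against Pam3CSK4 and 2 of 6 for the interaction; no call changed direction. Fitting only the 2 groups gave 4 genes higher for Pam3CSK4 against Control, 5 lower for IFN-gamma against Control, and 7 higher and 2 lower for both against Pam3CSK4. With the 3 libraries that carried mural and fibroblast transcripts left out, 25 were lower for Pam3CSK4 against Control and 14 lower for IFN-gamma against Control. In that setting 5 were higher and 2 lower for both against Pam3CSK4, and 12 higher in the interaction. Calls over all genes grew there in every comparison and direction, as given above. Calls over all genes were not counted when a single library was left out. With no filter 5 were lower for IFN-gamma against Control. Lower genes for both against Pam3CSK4 (1, Arsb) numbered 3 with limma at either pseudocount and 0 with no filter, with filterByExpr and with the replicate block. Leaving out 1 library at a time gave 4 to 7 higher for Pam3CSK4 against Control, 5 to 17 lower for IFN-gamma against Control, 3 to 8 higher for both against IFN-gamma, 1 to 6 higher and 0 to 2 lower for both against Pam3CSK4, and 1 to 13 higher and 1 to 4 lower in the interaction; the cause was not tested. The replicate block kept 249 of 264 values on their side of the threshold, with 14 calls lost and 1 gained. Deviations from the group mean had r -0.719 to 0.715 over 15 same-numbered pairs of libraries and -0.749 to 0.81 over 30 other pairs. The highest r, 0.81, joined Control replicate 3 and IFN-gamma replicate 1, which both carried mural and fibroblast transcripts. Such transcripts can set these correlations, so they cannot decide whether numbers are pairs. The numbers were not taken as pairs because no label ties them to an animal, batch or day. Over all genes, limma on log2(FPKM + 1), without TMM, called 1874 higher and 3046 lower for IFN-gamma against Control, against 2189 and 2361, and 632 and 740 for both against Pam3CSK4, against 663 and 332. The interaction has no separate 2-group value. With 2 Pam3CSK4 libraries, comparisons with that group have the least precision.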
